A study of Mus musculus with 8 samples.

Results

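The potassium channel genes studied here are the 92 genes whose symbol on the array is Kcn followed by a letter code and a closing number, measured by 138 of 55681 non-control probes. They were chosen by symbol alone, so antisense transcripts such as Kcnq1ot1, and Kcne1l and Kcnrg, were left out. The rule takes pore-forming subunits, the beta and modifier subunits that assemble with them, and the calcium-binding Kcnip proteins. Levels came from the cortex of 8 newborn mice, 4 labelled ischemia and 4 labelled control, each on 1 one-colour Agilent array. All 8 were male C57BL/6NCr pups at postnatal day 1.5 with no engineered allele named. The ischemia pups came from mothers whose uterine arteries had been clipped shut under anesthesia for 14 min at E16.5, in the last days of gestation, a procedure applied to the whole pregnancy and not to the cortex alone. The control pups carry no named treatment, and the labels do not say whether their mothers were anesthetized or operated on. They also do not say which pups were littermates, so p-values measure the spread between the sampled pups. The study's question was how a brief prenatal loss of blood supply leaves cortical expression after birth, and for these genes it is whether channel transcripts differ between the groups.

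Potassium channels let potassium ions leave a cell down their gradient, which sets the resting potential and ends each action potential. Voltage-gated members repolarize spikes, calcium- and sodium-activated members couple firing to an outward current, inward rectifiers hold the resting potential and clear extracellular potassium in glia, and leak channels stay open at rest. In the newborn cortex neurons still mature electrically, and the set of channels they carry changes as they do.

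Of the 92 genes, 63 were well above background on all 8 arrays by their best-detected probe, 4 on 4 to 7 arrays, 6 on 1 to 3 arrays and 19 on 0 arrays. Well above background is the scanner software's own mark for a spot whose signal exceeds background by a margin set in that software, and a probe so marked is called detected here. A gene entered the test when a probe was detected on at least 4 of the 8 arrays, which 67 genes did and 25 did not. Detection was complete in several pore families: both Kcnb, all 4 Kcnc, all 3 Kcnd and all 5 Kcnq genes reached all 8 arrays, as did all 4 Kcnip genes. In the Kcna family of delayed rectifiers and A-type channels 7 of 8 genes did, Kcna10 being the exception. The gaps lay elsewhere. In the Kcne family of single-pass partners 0 of 4 genes entered the test, with Kcne1, Kcne3 and Kcne4 detected on 0 arrays. Among 15 inward rectifiers of the Kcnj family, 9 entered the test, while Kcnj1, the renal secretory channel, Kcnj2 and Kcnj6 were detected on 0 arrays and Kcnj13, Kcnj14 and Kcnj15 on 1 to 3. Among the 14 Kcnk leak channels 10 entered, Kcnk5, Kcnk7 and Kcnk18 being detected on 0 arrays and Kcnk9 on 1 to 3. Of the silent modifiers Kcnf, Kcng, Kcns and Kcnv, which carry no current unless joined to a Kcnb subunit, 7 of 10 entered. The beta subunits Kcnmb1 and Kcnmb3, the calcium-activated channels Kcnn1 and Kcnn4, the cytoplasmic subunit Kcnab2 and the ether-a-go-go relatives Kcnh1 and Kcnh6 were also detected on 0 arrays. A gene detected on 0 arrays was not detectable with its probes, which does not show that its transcript is absent. The number of member genes detected per array was 65, 69, 66 and 69 in ischemia arrays 1 to 4 and 68, 66, 66 and 67 in control arrays 1 to 4, so the groups overlap in how many they show.

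**Figure D1:**
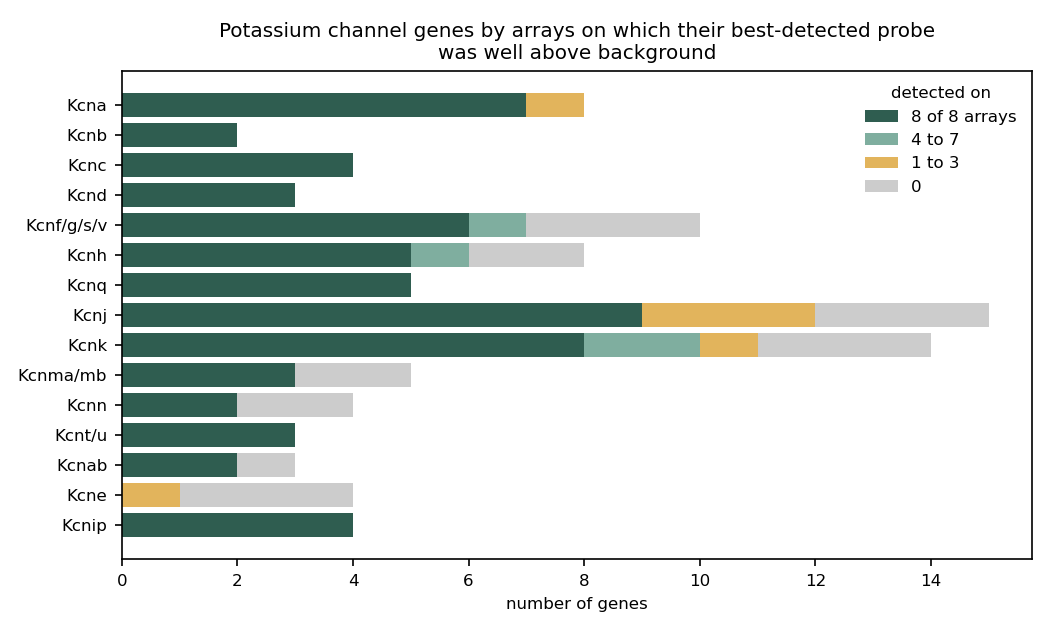
Number of potassium channel genes in each subfamily by the number of arrays, of 8, on which the best-detected probe was well above background. The Kcnb, Kcnc, Kcnd, Kcnq and Kcnip families are complete on 8 arrays, and the Kcne family has 0 genes there.

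All levels below are relative levels, the processed signal divided by that array's 75th percentile and taken to log2, and differences are ischemia minus control on that log2 scale. They describe 1 probe per gene and do not rank one gene's abundance against another's. The arrays were similar in scale, with 75th percentiles from 358.5 to 393.3 in ischemia arrays and from 305.6 to 391.4 in control arrays, and with 0 saturated spots. Ischemia arrays occupy row 2 and control arrays row 1 of the same slide, so slide row and group cannot be told apart. As a check of the labelled tissue, 6 of 6 excitatory and 6 of 6 inhibitory neuron markers were well above background on all 8 arrays. Their summed linear levels were 84.9 to 108.4 in ischemia and 89.5 to 95.8 in control for the excitatory list, and 31.7 to 34.5 in ischemia and 31.5 to 35.9 in control for the inhibitory list. Meninges markers, 7 of 8 tested, summed to 15.1, 3.03, 4.57 and 14.5 in ischemia arrays 1 to 4, against 2.78 to 3.88 in control arrays. Of these sums, 8.24, 0.831, 0.995 and 11.1 in ischemia arrays 1 to 4 came from Ptgds, a prostaglandin synthase also made by the choroid plexus. Without Ptgds the other 6 summed to 6.83, 2.20, 3.58 and 3.41 in ischemia arrays 1 to 4, against 2.29 to 3.37 in control arrays. Proliferation markers, 5 of 5 tested, summed to 5.42 to 6.43 in ischemia arrays and 6.99 to 8.44 in control arrays. Their part in any channel difference was not tested, and in bulk tissue fewer cells of a type and less RNA per cell cannot be told apart.

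With limma, 0 of the 67 potassium channel genes passed an adjusted p of 0.05, where 0.00506% of the 19751 genes tested did. At an unadjusted p under 0.05 there were 9, or 13.4% of the 67, against 10.9% of all genes. By single probes it was 8 of 87 kept member probes, or 9.20%, against 10.1% of all kept probes. Of the 9, 3 were higher in ischemia against 3.25% of all genes, and 6 were lower against 7.65% of all genes, which are shares of 4.48% and 8.96% of the 67. The groups did not overlap in 6 members, or 8.96%, where 6.55% of all genes did not: 1 was higher (2.27% of all genes) and 5 were lower (4.28% of all genes). These shares stand near those of all genes. The direction was balanced, with a difference above 0 in 34 of 67 members, or 50.7%, and in 43% of all genes. The median difference was 0.00 for the members and -0.02 for all genes, and the interquartile range ran from -0.11 to 0.11 for the members and from -0.12 to 0.06 for all genes. Differences beyond 0.5 in size were those of Kcnq1 and Kcnt1, and of Kcns2, whose probe was detected on 3 ischemia arrays and 1 control array. Without ischemia arrays 1 and 4, which had the highest meninges sums with Ptgds counted, a choice made after seeing the data, 0 members passed an adjusted p of 0.05. With all 8 arrays 0 had passed as well, so this count cannot show what part those arrays had.

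**Figure D2:**
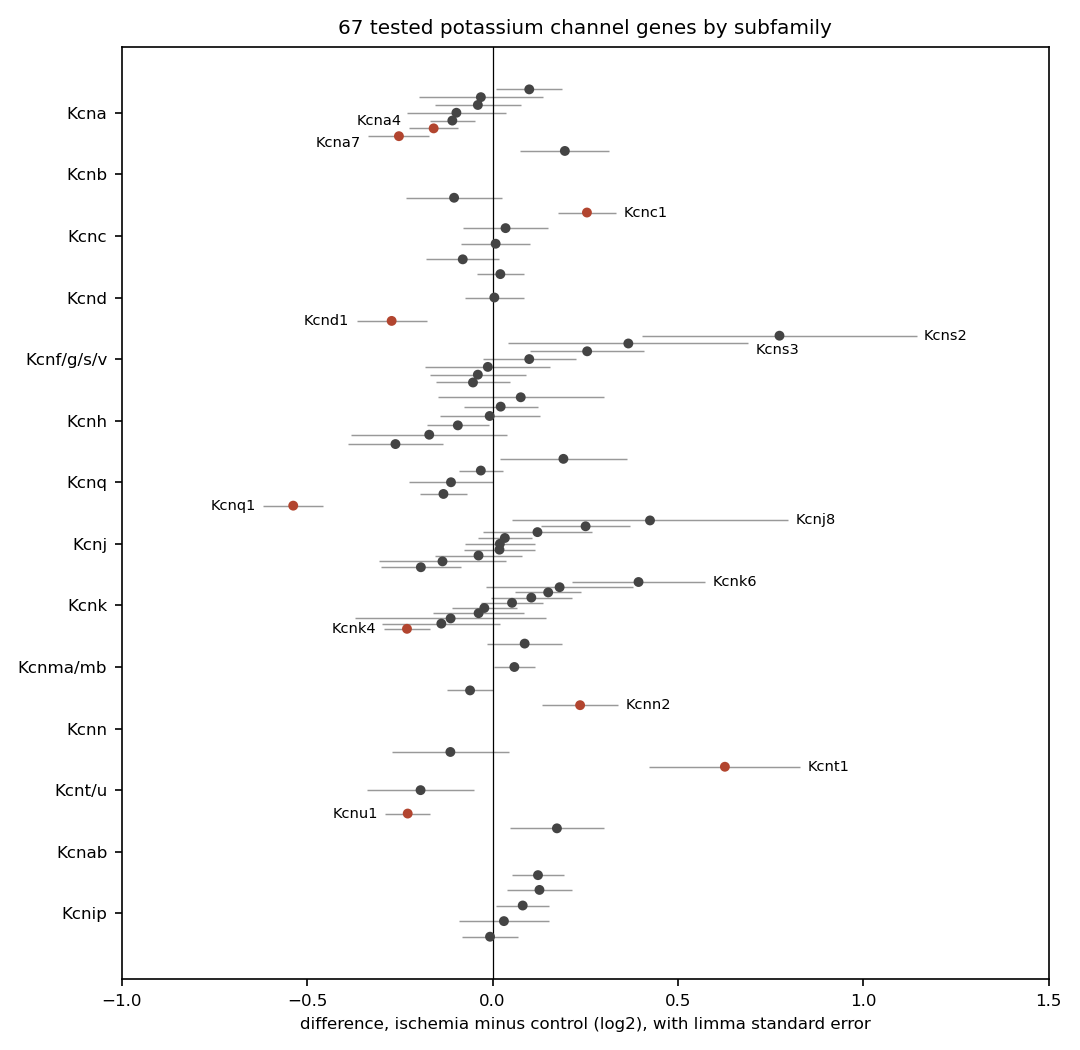
Difference of each of the 67 tested genes (ischemia minus control, log2 scale) with its limma standard error, by subfamily, genes with an unadjusted p under 0.05 in red. The points scatter on both sides of 0 in most subfamilies, and Kcnq1 at -0.54 and Kcnt1 at 0.63 lie farthest out among the red points.

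The Kcnq genes encode slowly opening channels, among them those of the neuronal M-current, and Kcnq1 is the member best known from heart and epithelia, where it pairs with Kcne subunits. Its brighter probe read -2.37, -2.49, -2.34 and -2.31 in ischemia arrays 1 to 4, against -1.99, -1.83, -1.88 and -1.67 in control arrays 1 to 4. All 4 ischemia arrays lay below all 4 controls. The difference was -0.54 (SE 0.08, 95% confidence interval from -0.72 to -0.35), the smallest p of any member, with an adjusted p of 0.151 in limma and an exact two-sided permutation p of 0.0286, the smallest that 4 against 4 arrays can give. Under normexp background correction, whose offset of 50 shrinks dim probes by construction, it was -0.29. A second probe, printed below, lies 9 bases downstream on chromosome 7 (mm9, plus strand), shares 51 of its 60 bases with the first, and read -2.81, -2.70, -2.79 and -2.46 in ischemia arrays 1 to 4, against -2.65, -2.50, -2.34 and -2.41 in control arrays 1 to 4. There the groups overlap, and the difference was -0.21 with an unadjusted limma p of 0.066. The outer ends of these probes, shown because near-identical targets gave differences of unlike size, are given with the 9 bases unique to each in capitals, the first from chr7:150612887-150612916 and the other from chr7:150612926-150612955.
Kcnq1 brighter probe, first 30 bases: AATTTCGTAgtatgatcttgattgagagac
Kcnq1 second probe, last 30 bases: taaagttgggacgtcccaggtTGATCTTGG
Kcnq1 is imprinted, and the long antisense transcript Kcnq1ot1, not a member, starts within it. The brighter Kcnq1ot1 probe differed by -0.12, and its 4 ischemia values from -1.07 to -0.34 lay within the control values from -1.15 to -0.25. Kcnq3, a gene of the neuronal M-current, averaged -1.88 ± 0.03 in ischemia and -1.77 ± 0.24 in control arrays (SD, n = 4 each). Its difference was -0.11 (95% confidence interval from -0.37 to 0.15). Kcnq5 differed by 0.19 (SE 0.17).

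Among the Kcna genes, relatives of the fly Shaker channel, 6 of 7 tested differences were negative, with a median of -0.10. Kcna7 read -0.26, -0.37, -0.48 and -0.30 in ischemia arrays 1 to 4, against -0.15, -0.10, 0.07 and -0.23 in control arrays 1 to 4. The groups did not overlap, although ischemia array 1 and control array 4 were close. The difference was -0.25 (SE 0.08, adjusted p = 0.348), and a second, dimmer probe gave -0.15. The brighter probe (chr7:52664902-52664961, mm9, plus strand) crosses the codons of the proline-valine-proline hinge that lines the inner gate of Shaker-type channels, in capitals below.
Kcna7 brighter probe: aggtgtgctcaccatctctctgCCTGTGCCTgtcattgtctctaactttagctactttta
The motif searched was CCNGTNCCN on both strands, found in 1074 of 55681 probes, or 1.93%, and in 2 of 138 member probes, those of Kcna7 and Kcnd3. Kcna4, which makes a fast inactivating A-type current, read 2.23, 2.21, 2.11 and 2.31 in ischemia arrays 1 to 4, against 2.43, 2.45, 2.29 and 2.33 in control arrays 1 to 4. In 3 of 4 ischemia arrays it was below all controls, while ischemia array 4 stood above control array 3. The difference was -0.16 (SE 0.07, adjusted p = 0.442). Kcna6 differed by -0.11 (SE 0.06), and its 3 kept probes ranged from -0.11 to -0.03. Kcna1 and Kcna2, the axonal delayed rectifiers of mature myelinated fibres, differed by -0.10 (SE 0.13) and -0.03 (SE 0.17), and Kcna3, the member known from lymphocytes, by 0.10, the positive one. Kcna5 differed by -0.04 on its tested probe. A second probe, not tested, read -2.43, -1.91, -2.51 and -4.85 in ischemia arrays 1 to 4 and was detected on arrays 1 to 3. In control arrays 1 to 4 that probe read -4.19, -3.69, -3.53 and -4.75. It was detected on 0 of them, so no difference is given for it.

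Genes of the fast spike-repolarizing Kcnc channels were all detected. Kcnc1, characteristic of fast-spiking interneurons, read 1.01, 1.08, 1.18 and 0.89 in ischemia arrays 1 to 4, against 0.78, 0.67, 0.85 and 0.83 in control arrays 1 to 4. The lowest ischemia array was just above the highest control, and this was the 1 tested member whose ischemia arrays all lay above the controls. The difference was 0.25 (SE 0.08, adjusted p = 0.329), and its other kept probes gave 0.13 and 0.18. Kcnc2 (0.03) and Kcnc4 (0.01) each differed by less than their standard error, of 0.12 and 0.09. Inhibitory neuron markers, summed above, overlapped between the groups, and their part in the Kcnc1 difference was not tested.

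The Kcnd genes encode the dendritic A-type channels that Kcnip, Dpp6 and Dpp10 proteins bring to the membrane. Kcnd1 read 0.66, 0.56, 0.38 and 0.57 in ischemia arrays 1 to 4, against 0.74, 1.04, 0.77 and 0.70 in control arrays 1 to 4. All 4 ischemia arrays were below all controls, and control array 2 stood highest. The difference was -0.27 (SE 0.09, adjusted p = 0.374). Its second kept probe gave 0.11, a value that turned to -0.07 without control array 1 and -0.02 without ischemia array 3. The mean of both probes gave -0.08. The probe with the negative difference (chrX:7413570-7413629, mm9, plus strand) reads as 19 open codons that end in a stop codon, in capitals.
Kcnd1 tested probe: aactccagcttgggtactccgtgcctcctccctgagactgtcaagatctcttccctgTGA
The other A-type genes had differences near 0. Kcnd2 averaged 2.58 ± 0.12 in ischemia and 2.57 ± 0.09 in control arrays (SD, n = 4 each), a difference of 0.00 (95% confidence interval from -0.18 to 0.19). Kcnd3 averaged 2.86 ± 0.08 in ischemia and 2.84 ± 0.06 in control arrays (SD, n = 4 each), a difference of 0.02 (from -0.12 to 0.17), and its second probe gave 0.27, which rested on ischemia array 1 and was -0.04 without it. Of the Kcnip partners, Kcnip1 differed by 0.08 (SE 0.07), Kcnip2 by 0.03 (SE 0.12), Kcnip3 by -0.01 (SE 0.08) and Kcnip4 by 0.13 (SE 0.09), where a second Kcnip4 probe gave -0.06. The partners outside the Kcn symbols, Dpp6 at 0.07 and Dpp10 at 0.02, had differences below their standard errors of 0.08 each.

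Kcnb2, a delayed rectifier of neurons, differed by -0.10 (SE 0.13). The silent modifiers of the Kcnb channels went both ways, 4 positive and 3 negative. Kcns2 entered the test with detection on 3 ischemia arrays and 1 control array. It read -2.27, -3.67, -2.36 and -3.48 in ischemia arrays 1 to 4, against -3.03, -4.05, -3.94 and -3.86 in control arrays 1 to 4. Ischemia arrays 1 and 3 were high and arrays 2 and 4 were among the controls, of which array 1 alone was detected. The difference of 0.77 (SE 0.37, adjusted p = 0.495) is therefore measured largely against background, and it was 0.24 under normexp. Kcns3 read 0.81, -0.73, -0.67 and -0.65 in ischemia arrays 1 to 4, against -0.65, -0.82, -0.61 and -0.62 in control arrays 1 to 4. Its difference of 0.37 rested on ischemia array 1, and without that array it was -0.01. Kcnf1 differed by 0.26 (SE 0.15) on its tested probe. The other probe gave -0.29 (SE 0.15), but it was detected on 1 ischemia array and 3 control arrays and gives no firm second reading. Kcng1 (0.10), Kcng2 (-0.01), Kcns1 (-0.04) and Kcnv1 (-0.05) differed by less than their standard errors.

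The Kcnh genes encode the ether-a-go-go, ERG and ELK channels. Kcnh7, an ERG channel of neurons, had the smallest p of the 6 tested, with -3.51, -3.39, -3.41 and -3.69 in ischemia arrays 1 to 4, against -3.48, -2.96, -3.10 and -3.40 in control arrays 1 to 4. The groups overlap, control array 2 being the highest, and ischemia array 1 was not detected. The difference was -0.26 (SE 0.13, adjusted p = 0.506), -0.17 without control array 2 and -0.11 under normexp. Kcnh2, the ERG gene of the heart, differed by -0.09 (SE 0.08). The forebrain ELK gene Kcnh3 averaged 3.59 ± 0.11 in ischemia and 3.57 ± 0.18 in control arrays (SD, n = 4 each) and differed by 0.02 (95% confidence interval from -0.21 to 0.25). Kcnh4, Kcnh5 and Kcnh8 differed by -0.01, 0.08 and -0.17, with standard errors of 0.13, 0.22 and 0.21.

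The Kcnt and Kcnu genes encode channels opened by intracellular sodium or a rise in pH, and of 3 tested 1 difference was positive and 2 were negative. Kcnu1, which encodes an alkaline-sensitive channel known from mouse sperm, read 0.56, 0.53, 0.38 and 0.46 in ischemia arrays 1 to 4, against 0.67, 0.72, 0.69 and 0.77 in control arrays 1 to 4. The groups did not overlap. The difference was -0.23 (SE 0.06, adjusted p = 0.278), by 1 probe. Kcnt1, the sodium-activated Slack channel, read -1.34, -1.40, -2.08 and -1.87 in ischemia arrays 1 to 4, against -2.00, -2.20, -2.71 and -2.29 in control arrays 1 to 4. Ischemia array 3 lay below control array 1, so the groups overlap. The difference was 0.63 (SE 0.20, 95% confidence interval from 0.16 to 1.09, adjusted p = 0.347), and 0.31 under normexp. Its relative Kcnt2 differed by -0.19 (SE 0.14). Kcnn2, the small-conductance calcium-activated channel behind the afterhyperpolarization, read 0.57, 0.96, 0.97 and 0.73 in ischemia arrays 1 to 4, against 0.49, 0.56, 0.52 and 0.71 in control arrays 1 to 4. Ischemia arrays 2, 3 and 4 were above all controls and array 1 was among them. The difference was 0.24 (SE 0.10, adjusted p = 0.459), and Kcnn3 differed by -0.11 (SE 0.16). Kcnma1, the pore of the large-conductance channel, differed by 0.09 (SE 0.10), with 3 probes between -0.13 and 0.10. Its neuronal beta subunit Kcnmb4 averaged 4.68 ± 0.05 in ischemia and 4.74 ± 0.09 in control arrays (SD, n = 4 each), a difference of -0.06 (95% confidence interval from -0.20 to 0.08), and Kcnmb2 differed by 0.06 (SE 0.06).

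**Figure D3:**
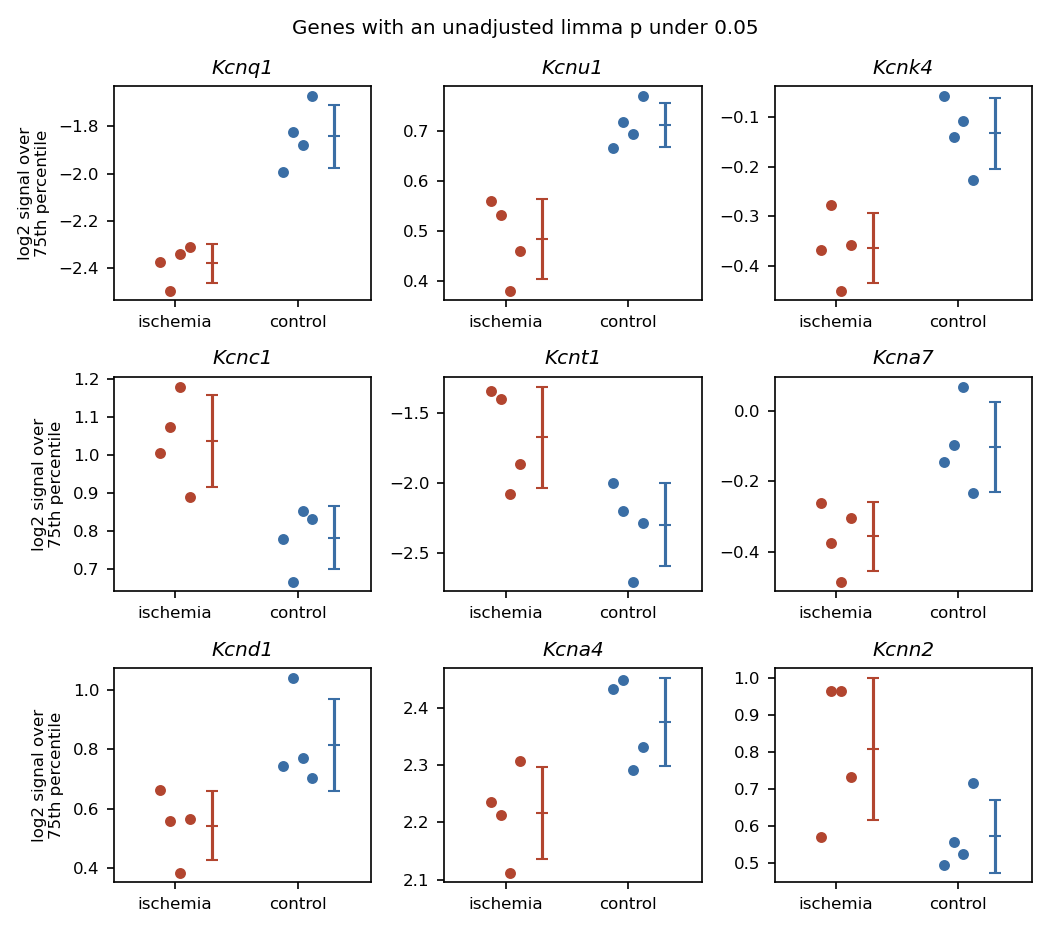
Relative level (log2 signal over the array's 75th percentile) in each of the 4 ischemia arrays (left, red) and 4 control arrays (right, blue) for the 9 genes with an unadjusted limma p under 0.05, with the mean and SD as bars and a separate axis range per gene. The groups separate for Kcnq1, Kcnu1, Kcnk4, Kcnc1, Kcna7 and Kcnd1 and overlap for Kcnt1, Kcna4 and Kcnn2.

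Of the leak channels, Kcnk4, a mechanically gated channel of neurons, read -0.37, -0.28, -0.45 and -0.36 in ischemia arrays 1 to 4, against -0.06, -0.14, -0.11 and -0.23 in control arrays 1 to 4. All 4 ischemia arrays lay below all 4 controls. The difference was -0.23 (SE 0.06, adjusted p = 0.291), and a dimmer second probe gave -0.28. Kcnk6 read -1.94, -1.82, -1.51 and -1.97 in ischemia arrays 1 to 4, against -2.44, -1.84, -2.56 and -1.98 in control arrays 1 to 4. Control array 2 lay among the ischemia arrays, and the other 3 controls were below all of them. The difference was 0.39 (SE 0.18, adjusted p = 0.475), and 0.18 under normexp. Kcnk2, a stretch- and lipid-sensitive channel, differed by 0.15 (SE 0.09), Kcnk1 by 0.10 (SE 0.11) and the acid-sensitive Kcnk3 by 0.05 (SE 0.08). Kcnk10 averaged 3.25 ± 0.06 in ischemia and 3.27 ± 0.16 in control arrays (SD, n = 4 each), with a 95% confidence interval of the difference from -0.22 to 0.18. Kcnk13, the resting channel of microglia, read -0.28, -1.25, -1.35 and -1.64 in ischemia arrays 1 to 4, against -1.06, -0.96, -0.96 and -1.08 in control arrays 1 to 4. Ischemia array 1 was above every control and the other 3 were below every control. The difference was -0.11 (SE 0.26), -0.40 without ischemia array 1 and 0.06 without ischemia array 4. Microglia markers, 6 of 6 tested, summed to 19.2 in ischemia array 1, with 18.3 to 19.6 over the ischemia arrays and 17.4 to 19.6 over the control arrays. Most of each sum came from Csf1r. The rest summed to 7.79 to 8.96 in ischemia arrays and 7.26 to 8.43 in control arrays. Of the 6 marker differences, 3 were positive and 3 negative, 1 of each with an unadjusted limma p under 0.05. Their part in the Kcnk13 values was not tested.

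Of the inward rectifiers, Kcnj10, the potassium-clearing channel of astrocytes, averaged 2.10 ± 0.06 in ischemia and 2.06 ± 0.12 in control arrays (SD, n = 4 each), a difference of 0.03 (95% confidence interval from -0.13 to 0.20). Astrocyte markers, 6 of 6 tested, summed to 138.3 to 179.6 in ischemia arrays and 121.6 to 146.2 in control arrays, most of it from Aldoc. The other 5 summed to 26.2 to 30.2 in ischemia arrays and 25.4 to 29.1 in control arrays, and the mean log2 level over all 6 was 2.18 to 2.39 in ischemia and 2.09 to 2.39 in control arrays, so the groups overlap. Kcnj16, its partner subunit, read -0.92, -0.92, -1.06 and -0.69 in ischemia arrays 1 to 4, against -0.70, -0.74, -0.89 and -0.48 in control arrays 1 to 4. In 3 of 4 ischemia arrays it was below all controls. The difference was -0.19 (SE 0.11), and -0.12 without control array 4. Kcnj3, a subunit of the G protein-gated channel, read -1.75, -2.00, -1.95 and -1.84 in ischemia arrays 1 to 4, against -2.08, -2.45, -1.89 and -2.12 in control arrays 1 to 4. Here 2 of 4 ischemia arrays were above all controls. The difference was 0.25 (SE 0.12, adjusted p = 0.494), 0.15 without control array 2 and 0.12 under normexp. A second probe also gave 0.25, but that value rested on ischemia array 3 and was -0.13 without it. Kcnj8, the pore of the vascular ATP-sensitive channel, read -2.19, -2.51, -0.74 and -2.47 in ischemia arrays 1 to 4, against -2.37, -2.39, -2.14 and -2.72 in control arrays 1 to 4. Ischemia array 3 stood 1.39 above the next array, and without it the difference of 0.42 became 0.01. Pericyte markers, 6 of 6 tested, were lowest in that array, with a sum of 8.37, where ischemia arrays spanned 8.37 to 10.6 and control arrays 9.96 to 11.4. Between the groups, 2 of these 6 marker differences were positive and 4 negative. Abcc9, the sulfonylurea receptor that pairs with Kcnj8, read -1.46 there, within its other arrays. What part cell content had in the Kcnj8 value of ischemia array 3 was not tested. The neuronal pore of the ATP-sensitive channel, Kcnj11, differed by 0.02 (95% confidence interval from -0.20 to 0.24). Kcnj4 (0.02), Kcnj5 (0.12), Kcnj9 (-0.14) and Kcnj12 (-0.04) differed by less than their standard errors.

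Kcne2 and Kcnj13 did not enter the test, because their probes were at background on most arrays. Kcne2 is a single-pass subunit and Kcnj13 an inward rectifier, both known from the apical membrane of the choroid plexus, the epithelium that secretes cerebrospinal fluid. Kcne2 read -5.85, -5.80, -4.58 and 0.21 in ischemia arrays 1 to 4, against -4.24, -5.19, -6.04 and -4.61 in control arrays 1 to 4. It was well above background in ischemia array 4 alone, and the other 7 values are at background. The brighter Kcnj13 probe read -5.49, -4.55, -4.27 and -1.68 in ischemia arrays 1 to 4, against -3.35, -5.79, -5.75 and -4.67 in control arrays 1 to 4, and was well above background in ischemia array 4 and control array 1. A second Kcnj13 probe read -5.60, -6.03, -4.61 and -2.59 in ischemia arrays 1 to 4, against -5.12, -5.81, -5.18 and -6.08 in control arrays 1 to 4, again detected in ischemia array 4 alone. No fold between the groups is given, as most of these values are at background, where the lowest detected probe of an array lay between -4.13 and -3.75. The brighter Kcnj13 probe (chr1:89282991-89283050, mm9, minus strand) and the first 30 bases of the Kcne2 probe (chr16:92298236-92298265, mm9, plus strand) are shown because both probes were highest in ischemia array 4. The stop codon that closes 19 open codons is in capitals.
Kcnj13 brighter probe: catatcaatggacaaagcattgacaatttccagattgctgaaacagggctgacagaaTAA
Kcne2 probe, first 30 bases: gtaagtatccttaccacaaaacagtagcta
Of 10 choroid plexus markers, 8 were highest in ischemia array 4, and 5 stood more than 1 log2 unit above every other array there. Ttr stood 8.67, Aqp1 3.40 and Folr1 3.07 above the next array, which was itself detected. Clic6 at 0.05 and Slc4a5 at -2.59 were detected in ischemia array 4 alone, so no size is given for their gaps. Of the others, Kl was highest in ischemia array 2 at -1.89, and Prlr was well above background on 0 arrays. The 6 tested markers summed to 3.25 to 117.6 in ischemia arrays and 3.20 to 3.58 in control arrays. Most of the highest sum came from Ttr, and without it the other 5 summed to 8.89 in ischemia array 4 and to 4.01 or less in each of the other 7 arrays. Their part in the Kcne2 and Kcnj13 values was not tested.

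**Figure D4:**
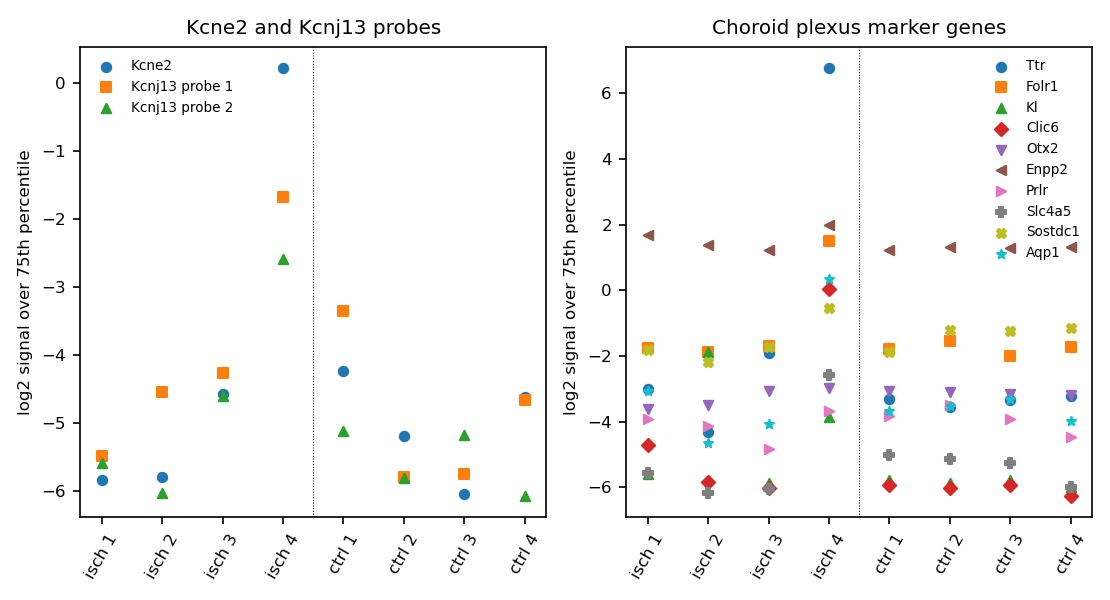
Relative level (log2 signal over the array's 75th percentile) of the Kcne2 and Kcnj13 probes (left) and of 10 choroid plexus markers (right) in ischemia arrays 1 to 4 and control arrays 1 to 4. Ischemia array 4 stands above the other 7 arrays for all 3 channel probes, at 0.21 for Kcne2, and for 8 of 10 markers.

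Single arrays stood apart for other probes too. A probe more than 1 log2 unit above the second-highest array, and well above background there, was counted, a criterion chosen after the values were seen. In all 11 of 138 member probes met this, or 7.97%, against 1849 of all probes, or 3.32%. Beside the 3 probes above, ischemia array 2 held 3 of them (Kcna10 at -2.43, 1 of 2 Kcnj14 probes at -0.56 and 1 of 2 Kcng1 probes at -0.67), ischemia array 3 held 3 (Kcnj8 at -0.74, a second Kcnmb2 probe at -1.66 and a second Kcnj3 probe at -0.97), ischemia array 1 held 1 (Kcns3 at 0.81) and control array 3 held 1. Other probes of the same genes did not always share it. In ischemia array 2 the tested Kcng1 probe read 0.19, within its other arrays. The other Kcnj14 probe was detected in that array alone and was highest there, at -3.46. Over all probes such cases numbered 434, 505, 461 and 151 in ischemia arrays 1 to 4 and 124, 29, 105 and 40 in control arrays 1 to 4. All 4 ischemia arrays lay above all 4 controls in this count, as they did in spots marked as outliers by the scanner software, 165 to 189 in ischemia arrays and 134 to 144 in control arrays. Both differences follow slide row and group, which cannot be told apart.

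Different probes of a gene gave a second reading for 13 of the genes reported here. In 9 all kept probes had differences of the same sign and in 4 they had both signs: Kcnd1, Kcnf1, Kcnip4 and Kcnma1. With each array left out in turn, every kept probe held its sign in 4 of the 9, Kcna7, Kcnc1, Kcnk4 and Kcnq1. In the other 5, Kcna6, Kcnd3, Kcnj3, Kcnmb2 and Kcnmb4, at least 1 probe turned its sign. Of the 4 with both signs, a probe turned in Kcnd1, Kcnip4 and Kcnma1. In Kcnf1 both probes held their opposite signs. The tested probe ranged from 0.12 to 0.38, and the second, detected on 4 arrays, from -0.37 to -0.21. Leaving arrays out by probe was chosen after seeing the data. Whether unlike probes read different transcript forms was not analysed here.

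**Figure D5:**
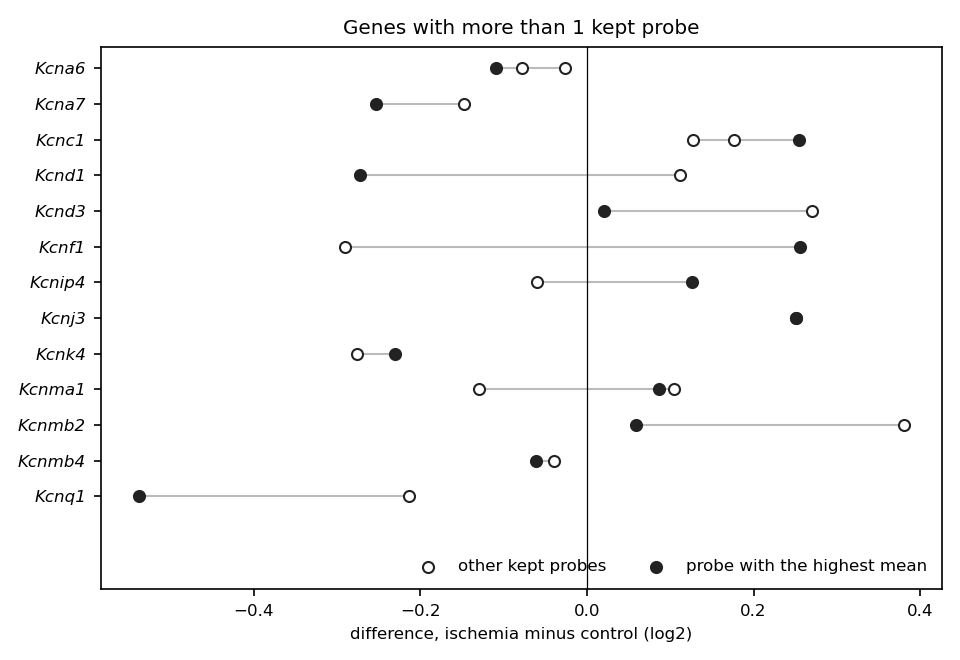
Difference (ischemia minus control, log2 scale) by each kept probe of 13 genes with more than 1 kept probe, the brightest probe filled. Probes fall on both sides of 0 for Kcnd1, Kcnf1, Kcnip4 and Kcnma1, and open points of Kcnf1 and Kcnmb2 come from probes detected on 4 of 8 arrays.

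Genes that work beside these channels were also compared, and 0 passed in any list. The cytoplasmic beta subunits Kcnab1 and Kcnab3, which speed inactivation of Kcna channels, differed by 0.12 (SE 0.07) and 0.17 (SE 0.13). Of 16 partners outside the Kcn symbols 14 were tested, 7 positive and 7 negative, with a median of 0.00. The smallest p were those of Lrrc38, a gamma subunit of the large-conductance channel, at -0.19 (SE 0.08) and of Nedd4l, a ubiquitin ligase that removes channels from the membrane, at -0.09. Of 11 genes of potassium pumps and cotransporters, all tested, 9 differences were positive, with a median of 0.07. The pump subunit Atp1b1 differed by 0.09. Of 4 genes of the hyperpolarization-activated HCN channels, which pass sodium and potassium and carry a net inward current when the membrane is hyperpolarized, 3 were tested and all 3 were negative. Hcn2 read 6.04, 5.91, 5.82 and 6.12 in ischemia arrays 1 to 4, against 6.18, 6.28, 6.46 and 6.25 in control arrays 1 to 4. The groups did not overlap, and the difference was -0.31 (SE 0.09, adjusted p = 0.295). Among voltage-gated sodium channel genes 8 of 10 were tested, 6 positive and 2 negative. Scn1a differed by 0.11. Of 15 calcium channel genes 12 were tested, 8 positive and 4 negative, the smallest p being those of Cacna1d at 0.14 and Cacna1i at 0.09.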

How the data were processed

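The scans were quantified with Agilent Feature Extraction 10.7.3.1, per the submitters' processing notes. Each spot's processed signal, a background-corrected linear intensity deposited by the authors, was the main value. The mean and local background signals served the normexp alternative. The authors' deposited value table is a ratio, equal to the processed signal over 1 constant per array within 0.00500% for values of 1 or more. Its column medians ran from 0.0836 to 0.1003 and its direction is that of the signal. The meaning of that constant stays unknown, and the table served as an alternative. Per the labels' protocols, 50 ng of RNA was amplified and labelled with Cy3.

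Of 59305 non-control spots per array, spots of the same probe were averaged and 26 probes whose spots were all marked as outliers were left out, 0 of them members. Between 47.6% and 51.7% of spots were well above background. Probes well above background on at least 4 of 8 arrays were kept (27131), and the kept probe with the highest mean stood for its gene (19751 genes). Names came from a RefSeq table of GRCm38.p6 for 27222 probes by accession, 3580 by symbol and 563 by older symbol, and 24290 kept the file's name. Members follow the file's name, and 1 further probe whose updated symbol is Kcnk9 was kept apart. Probe coordinates and sequences are those of the array files, in mm9, counted from 1. Exon and UTR positions were not analysed here.

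The ischemia and control arrays were set against each other over all genes by lmFit and eBayes of limma 3.58.1, run in R 4.3.3, with Benjamini-Hochberg adjustment and a threshold of 0.05, and single values by a two-sided exact permutation of the labels, in 70 assignments. The script was tested on simulated data. The number of arrays limits the precision. Membership followed the symbol alone, but this gene family and the gene lists were chosen with earlier results of these data known. Named members are the 10 higher and 10 lower with the smallest p, a fixed set of well-known channels, the smallest p of each subfamily and members with 1 array apart. In the lists of partner, transport and other channel genes the 2 genes with the smallest p are named. Cell type lists are given mainly as sums. Some genes that this rule names are not reported here, though the counts include them, except those of probe agreement and of changes of sign between settings. Genes outside this rule were picked with their values in view, among them Abcc9, Kcnq1ot1, Dpp6, Dpp10, the choroid plexus markers and the members given only to complete a subfamily. Alternatives were normexp, median and quantile scaling, 2 other filters, the mean of a gene's probes, a trended and robust variance, the replicate number as a block, the authors' table and each array left out.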

Additional observations from a re-analysis of the deposited data

Results flagged for a closer look

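Within each group the 4 arrays were checked for 1 array lying apart, by its gap to the nearest other array over the group's whole range and Dixon's critical ratio at the 95% level. Of 202 sets of 4 arrays, 8 passed, where chance flags about 1 in 20, or about 10.1 in all. Among ischemia arrays the ratio was 0.946 for Kcns3, where array 1 at 0.81 stood above the others. It was 0.882 for Kcna10, where array 2 at -2.43 was the 1 array on which the probe was detected, and 0.867 for a second Kcnma1 probe, where array 4 was low at -2.18. Among control arrays it was 0.851 for Kcnh2, with array 3 high at -1.08, and 0.845 for Kcns3, with array 2 low at -0.82. Control array 1 was the low one for Kcnip2 (0.930, at -1.48), Kcnk12 (0.962, at -1.38) and a second Kcnd1 probe (0.929, at -2.64). Without ischemia array 1 the Kcns3 difference was -0.01, against 0.37 with it.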

How the results depend on the processing

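The count of potassium channel genes past the threshold was 0 under every setting run. The count at an unadjusted p under 0.05 ranged from 6 with the mean of kept probes to 12 with a trended and robust variance. These were 8.96% of members against 10.2% of all genes, and 17.9% against 11.2%. With 1 array left out the count ranged from 8 to 12. Those were 11.9% to 17.9% of members, against 8.20% to 12.2% of all genes. Over all genes, 1 passed. That count was 0 with normexp, quantile normalization, detection on all 8 arrays, no filter, and without ischemia replicates 1 and 4 (chosen after seeing the data), 2 with median scaling, 20 with a trended and robust variance, and 0 to 1 with 1 array left out. The replicate number as a block gave 0 genes past the threshold. It gave 11 members at an unadjusted p under 0.05, or 16.4% of members against 11.9% of all genes. Same-numbered arrays deviated from their group means with correlations of 0.08, -0.06, 0.29 and 0.39. These values were not set against those of unlike-numbered arrays, so they cannot show whether the numbers pair the samples. The lowest adjusted p of a member was 0.110, for Kcnq1 with detection on all 8 arrays. The members' median difference lay between -0.01 and 0.04 with 1 array left out, against an SD of 0.08 between arrays in the members' median.

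Of 563 differences under 9 other settings, 7 in 6 genes changed sign. With normexp these were Kcnc4 (-0.040), Kcnh4 (0.0020), Kcnip3 (0.036), Kcnj11 (-0.010) and Kcnk10 (0.026), with quantile normalization Kcnip3 (0.013) and with the mean of kept probes Kcnf1 (-0.017). The cause was not tested. With 1 array left out, 47 of 504 differences in 24 genes changed sign. Their ranges were Kcna1 -0.20 to 0.0049, Kcna2 -0.18 to 0.083, Kcna5 -0.10 to 0.032, Kcnc2 -0.053 to 0.12, Kcnc4 -0.065 to 0.071 and Kcnd2 -0.050 to 0.047. Further ranges were Kcnd3 -0.013 to 0.055, Kcng2 -0.094 to 0.12, Kcnh3 -0.020 to 0.11, Kcnh4 -0.091 to 0.095, Kcnh5 -0.14 to 0.22 and Kcnip2 -0.092 to 0.076. Others ran as follows, Kcnip3 -0.054 to 0.024, Kcnj10 -0.010 to 0.083, Kcnj11 -0.066 to 0.063, Kcnj12 -0.10 to 0.048, Kcnj4 -0.057 to 0.064 and Kcnk10 -0.093 to 0.037. The last were Kcnk12 -0.23 to 0.012, Kcnk13 -0.40 to 0.058, Kcnk16 -0.099 to 0.045, Kcns1 -0.14 to 0.021, Kcns3 -0.0084 to 0.51 and Kcnv1 -0.11 to 0.0058.

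With 4 arrays per group the median standard error of a member's difference was 0.11, which limits the size of difference that could be called. Signal over background limits the 25 untested genes, for which no difference is given.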
